A study of Mus musculus with 249 samples.

Results

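Expression of 7 genes known as markers of the glutamatergic (excitatory) neurons of the cerebral cortex was described across the brains of an F2 mouse cross. The genes were Camk2a, Rtn4r, Tbr1, Neurod6, Nrn1, Lmo4 and Rasgrf2. Each gene was represented by the probes that carried its symbol and no other symbol, which gave 1 probe per gene, so that 7 of 23388 probes and 7 of 11485 measured genes were used. The 7 probes had a value on each of the 248 arrays used.

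Brain RNA came from male and female F2 animals of a cross between C57BL/6J and C3H/HeJ. Both strains carried an ApoE null background, so every animal lacked this lipid transport protein, and all were given a high-fat Western diet between 8 and 24 weeks of age. The RNA of 1 animal, labelled with Cy3, was hybridised on each array against a Cy5-labelled pool of RNA from the animals. The labels name 330 mice, 249 arrays were analysed, and animal 144 was left out, which left 1 group of 248 animals with 1 array each. The labels do not say which sex, genotype or array batch belongs to which animal, so the differences between animals were the measurement, and an array's own error cannot be told apart from them. Values are log10 ratios of animal over pool, on which a factor of 2 is 0.301. Because whole brain tissue was measured, fewer cells of a type and less RNA per cell cannot be told apart.

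Excitatory cortical neurons release glutamate and send the long axons that connect cortical areas with each other and with deeper brain regions. Their identity is set during development by transcription factors of the T-box and basic helix-loop-helix families, and their synapses change strength through calcium signals that activate CaM kinase II. Tbr1 and Neurod6 encode such transcription factors, and Lmo4 encodes a LIM-only adaptor that joins transcription factor complexes. Camk2a encodes the alpha subunit of CaM kinase II, and Rasgrf2 a calcium-responsive exchange factor for Ras. Rtn4r encodes the Nogo receptor, through which myelin proteins limit axon growth, and Nrn1 encodes neuritin, a membrane-anchored protein induced by neuronal activity.

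Most arrays were alike in spread, and a few stood apart. The SD of an array over probes had a median of 0.0764 and ran between 0.0585 and 0.258 in the 248 animals, against 0.392 for animal 144. Of the 248 arrays, those of animals 178, 213 and 336 had the largest spreads over genes, and they held the lowest value of 17.8%, 16.3% and 8.28% of all genes. Many genes moved together across the arrays, and the first principal component carried 15.5% of the variance. Pairs, most alike genes and lists are therefore also described with the first component as a covariate, and the pairs without Lmo4 and Rasgrf2 also without the 12 of 249 arrays with the largest spread, which are that of animal 144 and 11 of the 248.

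The array of animal 144 held very little transcript of 5 of the 7 genes. On it Neurod6 was at -1.72, Tbr1 at -1.65, Rtn4r at -1.41, Camk2a at -1.08 and Nrn1 at -0.615, which is 53.1-fold, 44.5-fold, 25.6-fold, 12-fold and 4.12-fold below the pool. These values lay below the lowest of the other 248 animals for each of the 5 genes. Lmo4 was at -0.235, within the range of the other animals, and Rasgrf2 was at 0.0229, above the pool. Only 0.313% of all genes were lower than Neurod6 on this array, and 53.4% were lower than Rasgrf2. The list of pan-neuronal genes averaged -1.17 on the array of animal 144 and between -0.0906 and 0.0487 in the other 248 animals. Low values were not limited to neuronal lists, as astrocytes averaged -0.626 and oligodendrocytes -0.614 on this array, and GABAergic interneurons -1.02. Lists above the pool there were oligodendrocyte precursors (0.205), endothelium and pericytes (0.267), meninges and fibroblasts (0.14) and red cells (0.467).

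**Figure D1:**
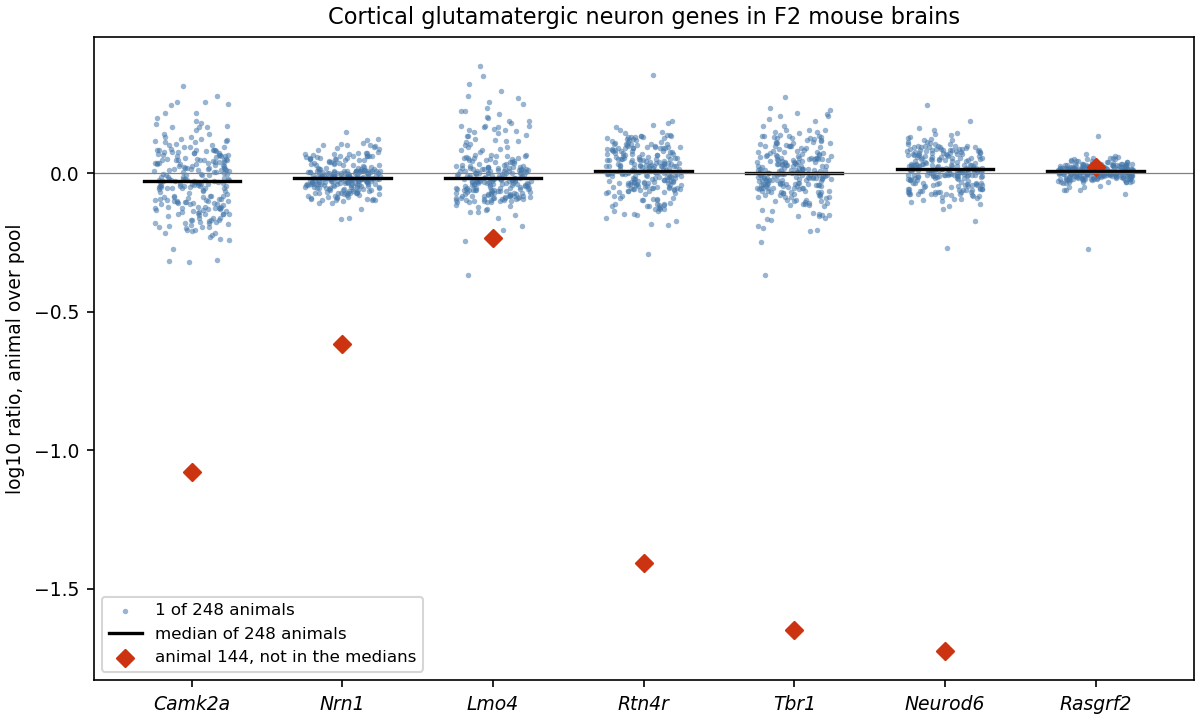
Log10 ratio of animal over pool (vertical axis) for each of the 7 genes, with 1 point per animal for 248 animals, a bar at their median and a diamond for animal 144. Camk2a has the largest SD and Rasgrf2 the smallest among the 248 animals, and animal 144 lies far below the others for 5 of the 7 genes.

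Among the 248 animals the 7 genes differed widely in how much they varied. Camk2a had the largest SD, 0.116, above the SD of 95.1% of all measured genes, for which the median was 0.0546. Its lowest value was -0.318 in animal 122, its median -0.0258 and its highest 0.316 in animal 43. The 5th and 95th percentiles of animals lay 2.35-fold apart, and the values ran without a gap between the extremes, with 147 animals within 0.1 of the pool.

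The transcription factor genes varied somewhat less. Tbr1 had an SD of 0.0934, with a lowest value of -0.365 in animal 89, a median of 0.00174 and a highest value of 0.277 in animal 8. Neurod6 had an SD of 0.0659, with -0.27 in animal 178, a median of 0.0147 and 0.248 in animal 252. The lowest value came from the array with the largest spread, and the next lowest was -0.171 and the next highest 0.188. The central 90% of animals spanned 2.02-fold for Tbr1 and 1.56-fold for Neurod6, so the smaller spread belonged to the gene that stood lowest on the array of animal 144.

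Lmo4 had a longer upper tail. It had an SD of 0.102, a lowest value of -0.366 in animal 89, a median of -0.0172 and a highest value of 0.388 in animal 43. A mixture of 2 normal components with the same variance placed 32 animals in an upper part between 0.126 and 0.388 and 216 animals in a lower part between -0.366 and 0.121, with means of 0.198 and -0.0267, a 1.68-fold difference. The gap between the parts was small, and 17 of the 32 animals had numbers above the median number and 15 below it.

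The surface protein genes also differed from each other. Rtn4r had an SD of 0.0827, with a lowest value of -0.29 in animal 336, a median of 0.0105 and a highest value of 0.357 in animal 178, while the next highest was 0.19. Nrn1 had an SD of 0.0518, below the median of all genes, with -0.165 in animal 178, a median of -0.0158 and 0.149 in animal 25. The arrays of animals 336 and 178 are 2 of the 3 with the largest spread, so the extremes of Rtn4r and the lowest value of Nrn1 come from wide arrays.

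Rasgrf2 hardly varied. Its SD of 0.0303 exceeded that of only 8.09% of genes, its median was 0.00733, and 246 of 248 animals lay within 0.1 of the pool. The lowest value, -0.274, belonged to animal 213, and the next lowest was -0.0742 in animal 177. The highest value, 0.135, belonged to animal 178, so both extremes came from the arrays with the largest spread.

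No animal was high or low for all 7 genes. With the 13 highest and 13 lowest animals of each gene taken, animal 89 was among the lowest for 5 genes, Camk2a, Tbr1, Neurod6, Nrn1 and Lmo4, and 2 animals were among the lowest for 3. Among the highest, 6 animals appeared for 3 genes and none for more. The combinations differed, with animal 43 high for Camk2a (0.316), Nrn1 (0.125) and Lmo4 (0.388), and animals 8 and 28 high for Rtn4r (0.146 and 0.138), Tbr1 (0.277 and 0.237) and Neurod6 (0.155 and 0.113). Animal 178 was high for Rtn4r, Lmo4 and Rasgrf2 and low for Tbr1, Neurod6 and Nrn1.

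The promoters of Rtn4r, Tbr1 and Neurod6 are shown because Tbr1 correlated with both other genes while those 2 did not correlate with each other, as described next. They are RefSeq promoters of assembly GRCm38.p6 that hold 250 bases before and 50 after the start site, at chr16:18127392-18127691 (plus strand) for Rtn4r, chr2:61804203-61804502 (plus strand) for Tbr1 and chr6:55681214-55681513 (minus strand) for Neurod6. Capitals mark matches to the E-box CANNTG, the letters bound by basic helix-loop-helix factors such as NEUROD6.
Rtn4r: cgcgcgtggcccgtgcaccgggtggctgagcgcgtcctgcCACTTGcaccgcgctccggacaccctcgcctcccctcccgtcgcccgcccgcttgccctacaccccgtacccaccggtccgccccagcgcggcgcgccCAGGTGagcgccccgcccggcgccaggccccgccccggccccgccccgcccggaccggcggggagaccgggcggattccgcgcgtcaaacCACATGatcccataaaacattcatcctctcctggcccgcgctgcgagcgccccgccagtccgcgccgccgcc
Tbr1: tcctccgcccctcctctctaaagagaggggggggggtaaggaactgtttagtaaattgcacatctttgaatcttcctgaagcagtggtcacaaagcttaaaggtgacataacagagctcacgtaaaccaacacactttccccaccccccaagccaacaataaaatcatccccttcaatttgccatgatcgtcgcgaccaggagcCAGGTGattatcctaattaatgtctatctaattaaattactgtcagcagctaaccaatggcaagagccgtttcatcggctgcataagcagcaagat
Neurod6: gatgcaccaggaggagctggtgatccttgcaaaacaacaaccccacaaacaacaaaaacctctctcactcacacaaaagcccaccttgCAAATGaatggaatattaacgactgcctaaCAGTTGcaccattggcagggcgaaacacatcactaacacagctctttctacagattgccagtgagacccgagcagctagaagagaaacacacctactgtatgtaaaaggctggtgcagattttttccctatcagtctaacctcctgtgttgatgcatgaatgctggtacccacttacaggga
The promoters held 3, 1 and 2 E-box matches, and 72.1% of 27025 promoters of this length held at least 1. The T-box letters TCACACC, searched on both strands, were in 3.96% of promoters and in none of these windows. The Rtn4r promoter was 78% G or C, above 98.2% of promoters, against 46% for Tbr1 and 46.3% for Neurod6.

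The 7 genes did not vary together as 1 group. Each of the 21 pairs was tested with limma across all genes, and a pair was called when the larger adjusted p of its 2 directions of regression was under 0.05. Of the 21 pairs 12 were called, 7 positive and 5 negative, and the median r over the pairs was -0.0625. That is 57.1% of pairs, against 65.7%, 66.2%, 57.4%, 60.3%, 59.9%, 59.9% and 55.4% of all genes called with Camk2a, Rtn4r, Tbr1, Neurod6, Nrn1, Lmo4 and Rasgrf2, so the share called was near that of any gene. The direction and size of r are therefore described below, with permutation p-values from 100000 permutations, for which 1e-05 is the smallest p possible. By the mixture of 2 components Lmo4 and Rasgrf2 have separate clusters of animals, 1 of them animal 213 alone for Rasgrf2. Their r is therefore given mainly within the parts of Lmo4 and without animal 213. The parts of Lmo4 nearly touched, at 0.121 and 0.126. Each part holds a narrower range of Lmo4 than all animals do, which can make r within it smaller. Of the 10 pairs among the other 5 genes 6 were called, 4 positive and 2 negative.

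Rtn4r and Tbr1 were the most alike of the 10 pairs. Their r was 0.626 and rho 0.71 over 248 animals (permutation p 1e-05 for both, limma adjusted p 1.49e-26), higher than the r of 99.3% of genes with Tbr1 and of 96.4% of genes with Rtn4r. Animal 178, high for Rtn4r and low for Tbr1, had the most influence, and r was 0.708 without it and 0.73 without the 11 arrays of largest spread. Without the 2 animals farthest from the median of Rtn4r r was 0.702, it was 0.599 with the first component as a covariate, and it was 0.696 in animals with higher numbers and 0.536 in those with lower numbers.

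Camk2a and Nrn1 formed a second pair, and both correlated with Lmo4 within its lower part. The r of Camk2a and Nrn1 was 0.469 and rho 0.429 (permutation p 1e-05 for both, limma adjusted p 8.55e-14), above that of 97.6% of genes with Nrn1. It was 0.439 without the 2 animals farthest from the median of Camk2a, 0.388 with the first component, and 0.432 and 0.506 in animals with higher and lower numbers, and again 0.469 without the 11 arrays of largest spread. In the 216 animals of the lower part of Lmo4, Lmo4 had an r of 0.457 with Camk2a and 0.434 with Nrn1 (rho 0.424 and 0.385, permutation p 1e-05 for each). In the 32 animals of the upper part the values were -0.104 and 0.169 (permutation p 0.574 and 0.349), and the difference between the parts was not tested. Lmo4 had an r between -0.0635 and 0.0317 with Rtn4r, Tbr1, Neurod6 and Rasgrf2 in its lower part. Over both parts together the r of Lmo4 was 0.516 with Nrn1 (rho 0.489, limma adjusted p 8.25e-17). With Camk2a it was 0.345 (rho 0.378, limma adjusted p 1.18e-07). Over the same animals Lmo4 was called negative with Tbr1 (r -0.215, rho -0.244, limma adjusted p 0.00158). The same held with Neurod6 (r -0.205, rho -0.2, limma adjusted p 0.0025). Within the lower part the rho with Tbr1 and Neurod6 was -0.11 and -0.103 (permutation p 0.107 and 0.131). In the upper part the r was -0.15 and 0.0942 (permutation p 0.412 and 0.603).

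**Figure D2:**
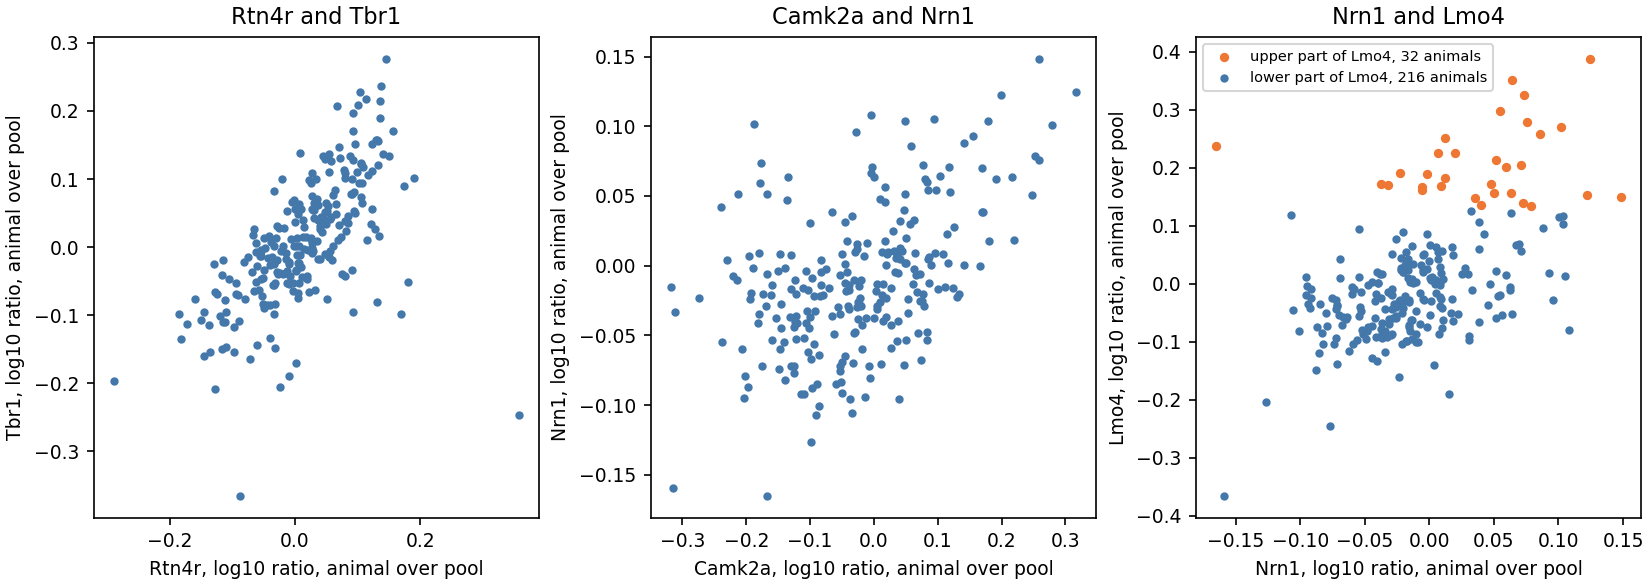
Each point is 1 of 248 animals, and both axes of each panel are log10 ratios of animal over pool. Rtn4r and Tbr1 (left) rise together apart from animal 178 at the far right, Camk2a and Nrn1 (middle) rise together with more scatter, and Lmo4 (right) rises with Nrn1 in the lower part of 216 animals.

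Tbr1 and Neurod6, the pair of transcription factors, had an r of 0.356 and a rho of 0.273 (permutation p 1e-05 for both, limma adjusted p 4.74e-08). Without the 2 animals farthest from the median of Tbr1 r was 0.324, and with the first component it was 0.43, and it was 0.29 without the 11 arrays of largest spread. It was 0.174 in animals with higher numbers, where the pair was not called, and 0.531 in those with lower numbers, and this difference was not tested. Nrn1 ran against both, with an r of -0.218 with Neurod6 (rho -0.262, permutation p 0.00064, limma adjusted p 0.00132) and -0.211 with Tbr1 (rho -0.25, permutation p 0.00085, limma adjusted p 0.00202). Without the 2 animals farthest from the median of Neurod6 or Tbr1 these r were -0.298 and -0.285, and without the 11 arrays of largest spread -0.274 and -0.232. In animals with higher numbers they were -0.418 and -0.387, against -0.0282 and -0.0863 in those with lower numbers, where neither was called, and this difference was not tested. The r of Tbr1 and Nrn1 was -0.123 with the first component as a covariate, with a limma adjusted p of 0.0876.

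The result for Camk2a and Rtn4r depended on the arrays and the covariate, and the pair was not called over the 248 animals. Their r was 0.0472 and rho 0.11 (permutation p 0.459 and 0.0843), r was 0.154 without the 11 arrays of largest spread, where the pair was called, and with the first component as a covariate the partial r was 0.683 (limma adjusted p 8.52e-33). The first component had an r of -0.478 with Camk2a and 0.743 with Rtn4r. The r of Camk2a with Tbr1 was 0.141 (rho 0.135, permutation p 0.0263, limma adjusted p 0.0451), 0.105 without animal 89 and 0.363 with the first component, and it was 0.122 in animals with higher numbers and 0.119 in those with lower numbers, where neither was called. The call was also lost on ranks and with blocks of animal numbers, where r was 0.139. Camk2a with Neurod6 (-0.098), Rtn4r with Neurod6 (-0.0956) and Rtn4r with Nrn1 (-0.13) were not called, with limma adjusted p of 0.17, 0.182 and 0.0643. Camk2a with Neurod6 was called with the first component at -0.188 (limma adjusted p 0.00629) and Rtn4r with Nrn1 at 0.146 (limma adjusted p 0.0443), while Rtn4r with Neurod6 was at 0.00926. Without the 11 arrays of largest spread the 3 values were -0.164, which was called, -0.0579 and -0.055. The r of Camk2a and Neurod6 was -0.291 in animals with higher numbers, against 0.0932 in those with lower numbers, and this difference was not tested.

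Rasgrf2 was nearest to Rtn4r. Without animal 213 their r was 0.287 and rho 0.225 (permutation p 1e-05 and 0.00048), and with the first component over all 248 animals the partial r was 0.0186 (limma adjusted p 0.854). Animal 178, highest for both genes, had the most influence on this pair. Their r was 0.289 over all 248 animals and 0.233 without animal 178 alone. Of the other r without animal 213, that with Tbr1 was 0.115 and that with Nrn1 -0.134 (permutation p 0.0721 and 0.0362). The rho of these pairs was 0.184 and -0.0348 (permutation p 0.00383 and 0.589), so r and rho differed in which pair stood out. The r with Camk2a, Neurod6 and Lmo4 lay between -0.065 and -0.0241.

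Including the array of animal 144 changed this picture. With it 16 of the 21 pairs had an r above 0 and the median r was 0.368, against 10 pairs and -0.0625 without it. The r of Tbr1 and Neurod6 was then 0.763, and that of Neurod6 and Nrn1 0.422, against -0.218 without this array.

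**Figure D3:**
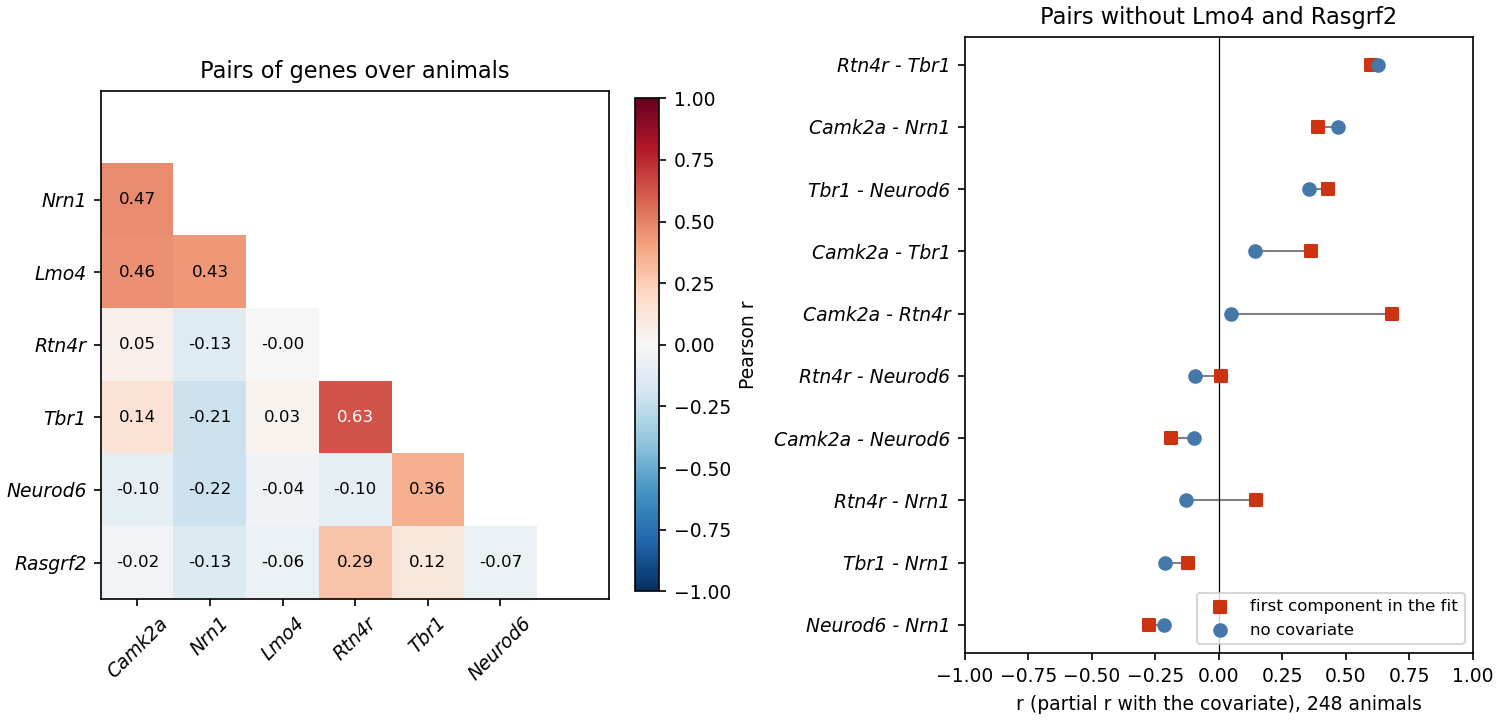
Left, Pearson r for each pair of genes over 248 animals, with the pairs of Lmo4 over the 216 animals of its lower part and those of Rasgrf2 with the other genes over 247 animals without animal 213. Right, r for the 10 pairs without Lmo4 and Rasgrf2 with no covariate (circles) and as partial r with the first component (squares), where the largest shift is that of Camk2a and Rtn4r.

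The genes most alike to Camk2a included 2 of the synapse. Over 248 animals its r was 0.861 with Vamp2, the vesicle SNARE synaptobrevin, 0.848 with Dlg4, the postsynaptic scaffold PSD-95, and 0.811 with Rnf44, a RING finger gene. Its lowest r were -0.761 with Ubl4a, which acts in the delivery of tail-anchored membrane proteins, and -0.758 with Polr1e, a subunit of RNA polymerase I. These 5 kept r of at least 0.689 in size with the first component as a covariate. Of the 10 measured partners of CaM kinase II, 4 were called positive and 3 negative, with a median r of -0.00295, against 35.1% and 30.6% of all genes and a median of 0.00983. The median of the list was 0.132 with the first component. Among these partners Dlg4 and Nrgn, the calmodulin-binding protein neurogranin (0.538), were positive, and the calmodulin genes Calm2 (-0.3) and Calm3 (-0.297) were negative.

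The share of activity genes called with Nrn1 did not exceed that of all genes. The r of Nrn1 was 0.596 with Nrgn, 0.541 with Bdnf, the growth factor that induces neuritin, and 0.423 with Egr1, an immediate early gene. Of the 15 measured activity and neurotrophin genes 6 were called positive and 0 negative with Nrn1, against 32.7% and 27.2% of all genes, and the median r of the list was 0.0728 (0.109 with the first component). The 6 of 15 called are a smaller share than the 59.9% of all genes. Genes most alike to Nrn1 were Rilpl1, linked to cilia and lysosomes (0.67), Helb, a DNA helicase (0.612), and the histone gene H3c2 (0.606). The lowest r were -0.717 with the gene spelled PHACTR4 in the annotation, a regulator of protein phosphatase and actin, and -0.697 with Rusf1, and with the first component these 5 values were 0.712, 0.559, 0.568, -0.691 and -0.665.

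Rtn4r varied with its own paralog and with a glutamate receptor gene. Its r was 0.886 with Grik5, a kainate receptor subunit, 0.874 with Rtn4rl2, a Nogo receptor homolog, and 0.874 with Tmem259, which acts in protein degradation at the endoplasmic reticulum. Among genes without separate clusters the lowest r were -0.78 with Usp16, a histone deubiquitinase, and -0.774 with Rnf13, a ubiquitin ligase of endosomes. With the first component these r were 0.731, 0.727, 0.691, -0.516 and -0.509. Whether the probes of Rtn4r and Rtn4rl2 hybridise with each other's transcript was not tested. Its ligands differed among themselves. Of 11 measured Nogo receptor partners 4 were called positive and 1 negative, against 35.3% and 30.9% of all genes, and Rtn4, the gene of Nogo, had an r of -0.0571, Omg, the oligodendrocyte myelin glycoprotein, -0.248 and Rtn4rl1, the other homolog, 0.323. The ligand gene Mag, the myelin-associated glycoprotein, has separate clusters of animals and was among the 4 called positive. The r of Rtn4, Omg and Rtn4rl1 with the first component were 0.0726, -0.00125 and -0.0151, and the median of the list was 0.0302.

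Tbr1 shared Rtn4rl2 among its most alike genes. Its r was 0.781 with Znfx1, a zinc finger helicase, 0.773 with Sez6, a dendritic membrane protein, and 0.769 with Rtn4rl2. The lowest among genes without separate clusters were -0.715 with Gkap1, which anchors a cyclic GMP kinase, and -0.699 with Smim11. These were, with the first component, 0.751, 0.762, 0.811, -0.675 and -0.675. Of 9 measured partners and targets of TBR1, 4 were called positive and 2 negative, against 28.3% and 29.1% of all genes, with a median r of 0.0819 (0.245 with the first component). Bcl11a, a transcription factor of cortical neurons that binds TBR1 and regulates its neurons in mouse, had an r of 0.751, and Grin2b, an NMDA receptor subunit gene activated by TBR1, 0.421. Reln, the TBR1 target reelin, had an r of 0.0635, and Eomes, the related T-box factor of precursor cells, -0.161.

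Among genes without separate clusters, Neurod6 was most alike to Ncald, a neuronal calcium sensor (0.683), Gm5141 (0.635) and Matr3, a nuclear RNA-binding protein (0.614). It ran against Map4, a microtubule-associated protein (-0.635), and Slc32a1, the vesicular transporter that loads GABA (-0.627). These 5 values were 0.699, 0.636, 0.612, -0.65 and -0.662 with the first component. Slc32a1 was called with Lmo4 in the opposite direction, with an r of 0.551 in the lower part and 0.397 in the upper part of Lmo4. Of 7 measured basic helix-loop-helix partners 2 were called positive and 2 negative with Neurod6, against 24.2% and 36% of all genes, with a median r of -0.0793 (0.00475 with the first component). Bdnf had an r of 0.356 with Neurod6, and of the 15 activity and neurotrophin genes 8 were called positive and 1 negative, with a median r of 0.143 against -0.0515 over all genes, and of 0.166 with the first component.

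Lmo4 was most alike to Mtss2, an actin and membrane-bending gene, with an r of 0.603 in its lower part and 0.424 in its upper part, and ran against Chd6, a chromatin remodeller, with -0.591 and -0.427. Tsc22d1, a transcription regulator, had 0.488 and 0.321, and Gm7368 had -0.421 and -0.381. The fit with the first component was made over all 248 animals and not within the parts. Of the 10 measured LIM and LDB partners 4 were called positive and 3 negative over all 248 animals, against 33.3% and 26.6% of all genes. Ldb1, the cofactor that LMO4 binds, had an r of 0.126 in the lower part, and Deaf1, another binding partner, 0.176.

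For Rasgrf2 the genes most alike were few and less close, and those named were picked over all 248 animals among genes without separate clusters. Without animal 213 its r was 0.537 with Tpte, a transmembrane phosphatase, 0.5 with Stam2, an endosomal sorting gene, and 0.369 with Plppr4, which acts at excitatory synapses. With Acadm, an enzyme of fatty acid oxidation, r was -0.384, and with Itprid2 it was -0.344, again without animal 213. The 5 values with the first component over all 248 animals were 0.499, 0.474, 0.362, -0.33 and -0.34. Only 0.479% of genes had an r above 0.5 in size with Rasgrf2 over all 248 animals, against 14% for Rtn4r and 7.58% for Camk2a. Over 248 animals 2 of 10 measured Ras exchange and signalling genes were called positive and 4 negative, against 29.3% and 26.1% of all genes. Their median r was -0.124 without animal 213 and -0.00231 with the first component. On ranks 0 were called positive and 3 negative, and with the first component 0 and 1. Genes of any kind called with Rasgrf2 were also fewer in these 2 settings, 3370 and 3917 against 6362. Map2k1, the kinase MEK1, had an r of -0.303 without animal 213.

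Of 2 lists of other cortical genes, that of excitatory neurons was mostly positive with Rtn4r and Tbr1 and that of cortical layers was mixed, and the differences between the 7 genes were not tested. Of 11 genes of excitatory neurons, 6 of which had separate clusters of animals, 9 were called positive and 0 negative with Rtn4r (median r 0.535), and 8 and 0 with Tbr1 (median r 0.323). Among them Emx1, a homeobox gene of the cortex, had an r of 0.746 with Rtn4r and 0.569 with Tbr1, and Bcl11b, a factor of deep-layer projection neurons, had 0.646 and 0.406. With Neurod6 2 were positive and 6 negative (median r -0.138). Among those without separate clusters Bcl11a was at 0.225 and Nrgn at -0.198. Larger r with Neurod6 came from genes with separate clusters, Rorb at 0.608, Egr3 at -0.39, Neurod2 at -0.378 and Cux2 at -0.337. With Camk2a 6 were positive and 4 negative, and with Nrn1 6 and 2, with Lhx2, a LIM homeobox gene, at 0.486 and 0.451. With the first component as a covariate the medians were 0.429 for Rtn4r, 0.192 for Tbr1, -0.105 for Neurod6 and 0.331 for Camk2a. Of 12 genes of cortical layers 5 were positive and 3 negative with Rtn4r (median r 0.0782), and 7 and 2 with Tbr1 (median r 0.181), with Nr4a2, a nuclear receptor gene of deep layers, at 0.353 and 0.256. With Neurod6 4 were positive and 2 negative (median r 0.0724), and with Camk2a 7 and 3 (median r 0.254). Over all genes the median r was 0.0228 with Rtn4r, -0.0087 with Tbr1, -0.0515 with Neurod6 and 0.00983 with Camk2a. Of all genes 35.3% were called positive and 30.9% negative with Rtn4r, and 28.3% and 29.1% with Tbr1. These shares were 24.2% and 36% with Neurod6, 35.1% and 30.6% with Camk2a, and 32.7% and 27.2% with Nrn1. The counts of layer genes with Rtn4r were near the shares of all genes.

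Lists of other brain regions were counted in the same way. Of 11 striatal genes 7 were called positive and 1 negative with Rtn4r (median r 0.509), and 8 and 0 with Tbr1 (median r 0.337), against 35.3% and 30.9% of all genes for Rtn4r and 28.3% and 29.1% for Tbr1. The medians were 0.251 and 0.331 with the first component. The r over animals was, for the dopamine signalling gene Ppp1r1b, 0.724 with Rtn4r and 0.475 with Tbr1. The list of striatal genes averaged between -0.177 and 0.234 in the 248 animals, and 7 of its 11 genes had separate clusters. Of 10 cerebellar genes 0 were called positive and 8 negative with Neurod6 (median r -0.296), and 1 and 8 with Tbr1 (median r -0.281), against 24.2% and 36% of all genes for Neurod6 and 28.3% and 29.1% for Tbr1. The medians were -0.3 and -0.282 with the first component. An example was Zic1, a transcription factor of granule cells, at -0.405 and -0.488. The cerebellar list averaged between -0.617 and 0.284 in the 248 animals, and 7 of its 10 genes had separate clusters. With Rtn4r 3 cerebellar genes were positive and 3 negative, against 35.3% and 30.9% of all genes. On ranks the cerebellar medians were -0.191 for Neurod6 and -0.0522 for Tbr1. All 6 measured pituitary genes had separate clusters, and their list averaged between -1.04 and 0.696. Of these, 1 was called with Rtn4r and 0 with Camk2a, Tbr1, Neurod6 and Nrn1, against between 57.4% and 66.2% of all genes. The part of differing shares of brain regions in the tissue was not tested.

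**Figure D4:**
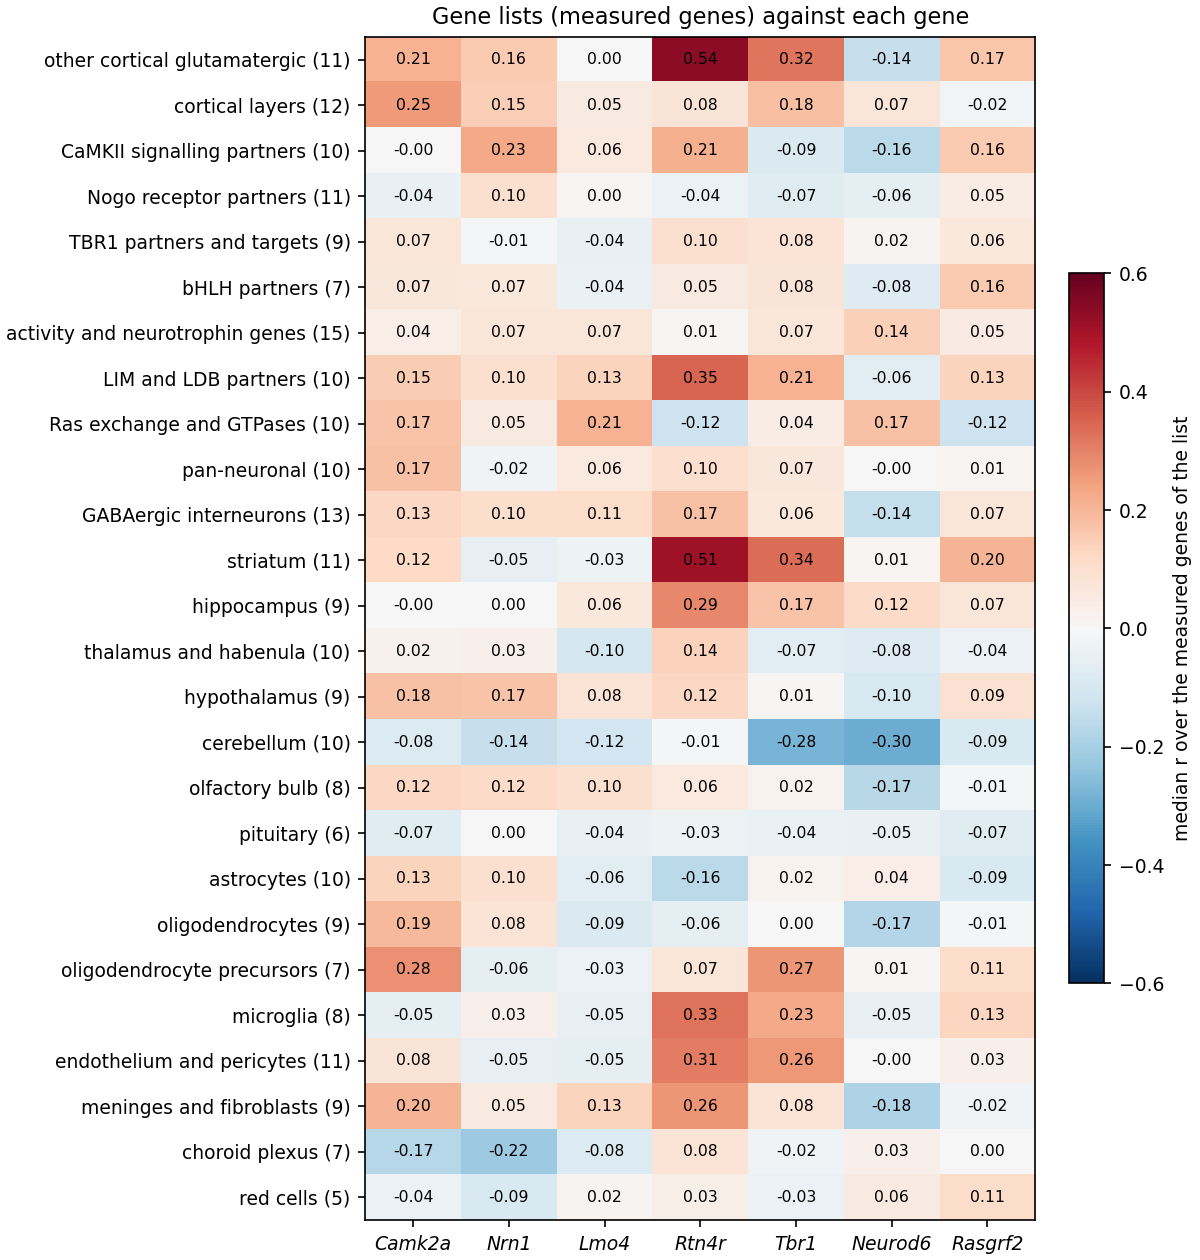
Median r over the measured genes of each of 26 gene lists (rows, with the number measured) against each of the 7 genes (columns), with Lmo4 over the 216 animals of its lower part and Rasgrf2 without animal 213. The highest medians are those of the other cortical glutamatergic and striatal lists with Rtn4r, and the lowest those of the cerebellar list with Neurod6 and Tbr1.

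Along the animal numbers, the only order that the labels give, Rtn4r and Tbr1 were lower in the animals with higher numbers. Rtn4r averaged -0.0175 ± 0.0779 in the 124 animals with numbers above the median number of 192.5 and 0.0409 ± 0.0771 in the 124 below it (SD), a difference of -0.0584 ± 0.0098 (SE, limma adjusted p 5.35e-06). Tbr1 averaged -0.0115 ± 0.0831 and 0.0257 ± 0.0997, a difference of -0.0372 ± 0.0116 (limma adjusted p 0.0136). The ranges of both groups overlapped almost fully for Rtn4r, -0.29 to 0.181 in higher and -0.186 to 0.357 in lower numbers. The other 5 genes were not called, so that 2 of 7 differed, both lower in higher numbers, against 18.4% of all genes (7.06% higher and 11.3% lower). With the first component as a covariate the limma adjusted p was 1.48e-05 for Rtn4r, 0.0852 for Tbr1 and 0.00429 for Camk2a, whose difference was -0.0484, against an adjusted p of 0.179 without the covariate. In 10 blocks of consecutive numbers Rtn4r averaged between 0.027 and 0.0598 in the first 5 and between -0.0496 and 0.0101 in the last 5. Whether the numbers follow age, litter, dissection or array batch is not given by the labels, and these cannot be told apart.

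**Figure D5:**
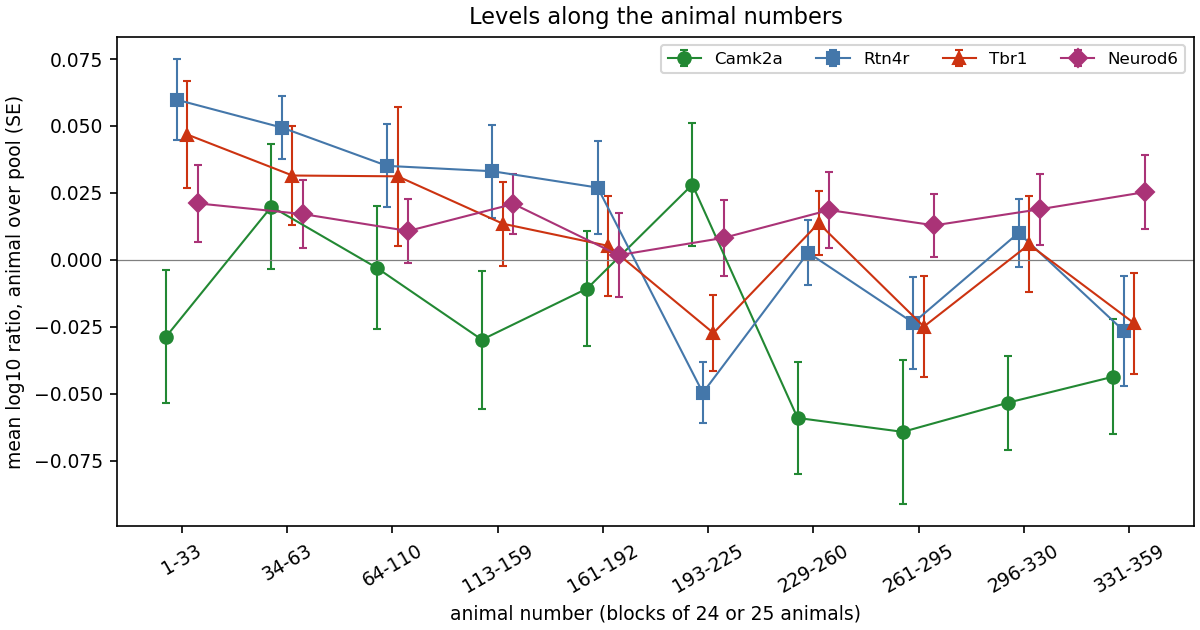
Mean log10 ratio of animal over pool with its standard error (vertical axis) in 10 blocks of 24 or 25 animals in order of animal number (horizontal axis) for Camk2a, Rtn4r, Tbr1 and Neurod6. Rtn4r is above the pool in the first 5 blocks and falls below it in the sixth, the eighth and the tenth, while Neurod6 stays between 0.00177 and 0.0253.

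The 7 genes lie on 6 chromosomes, with Nrn1 and Rasgrf2 both on chromosome 13, Camk2a on 18, Rtn4r on 16, Tbr1 on 2, Neurod6 on 6 and Lmo4 on 3. The share of genes of its own chromosome called with each gene was close to the share of all genes for Camk2a (65.1% of 258 genes), Rtn4r (64.7% of 346), Tbr1 (56.5% of 874), Neurod6 (63% of 614) and Rasgrf2 (54.3% of 411), and somewhat lower for Nrn1 (53.5% of 411) and Lmo4 (54.7% of 534). Of the 10 nearest measured genes, 5 on each side, between 4 (Lmo4) and 9 (Tbr1) were called. Both nearest neighbours of Rtn4r were without separate clusters, the palmitoyltransferase gene Zdhhc8 with an r of 0.472 (limma adjusted p 1.86e-14, 0.696 with the first component) and the proline dehydrogenase gene Prodh with -0.1 (limma adjusted p 0.156, 0.217 with the first component). Of the other nearest neighbours only 4930519L02Rik, beside Lmo4, was without them, and it was not called with Lmo4. The low value of Rasgrf2 in animal 213 was shared by its neighbour Msh3, a mismatch repair gene, which stood at -0.425 there and at -0.136 or above in the other 247 animals. Of the 10 flanking genes Msh3 and Cmya5 were lowest in animal 213, whose array held the lowest value of 16.3% of all genes.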

How the data were processed

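Brain RNA of 249 animals was measured on 2-colour arrays, 1 per animal, against a common pool. The deposited values are log10 ratios, per the labels of Cy3 (animal) over Cy5 (pool). How spots were scanned, background-corrected and dye-normalized was not given to this work, which leaves the signal over background unknown. The direction and base were read from the values: the Y-linked gene Eif2s3y had a median of 0.319 over animals above -0.5, close to 0.301, the log10 of 2, as a male against a pool of both sexes would have. The scale ended at -2 and 2, array medians lay between -0.00627 and 0.025, and 0.71% of values were missing.

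Probes naming a single gene, with values on 90% of arrays or more, were averaged per gene after a missing value was set to that probe's mean over arrays. Of 23388 probes 13645 carried 1 symbol, 48 several and 9695 none, and 13444 gave 11485 genes, 10869 with a current symbol of RefSeq GRCm38.p6. The animal number was taken from the source name, which the title contradicts for 1 sample.

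Each gene was regressed on each of the 7 genes with limma 3.58.1 in R 4.3.3, with Benjamini-Hochberg adjustment over all genes and a threshold of 0.05. Pearson r and Spearman rho had two-sided permutation p-values from 100000 permutations (Python 3.11.15, numpy 2.4.6, scipy 1.17.1). A gene was clustered when 2 normal components of 1 variance beat 1 by more than 10 in BIC with means at least 3 SD apart. This held for 59.9% of genes, for 4787 of them with a smaller part of under 6 animals. The fits were also run on simulated data in which genes were independent apart from planted relations. Genes of the arrays here moved together, so that run does not show how the calls behave on them. The rule for named genes took, for each of the 7, the 3 highest and 2 lowest r among called genes without clusters. It also took the nearest gene on each side, partner genes, and the 2 r largest in size of each list among its genes without clusters. Msh3, Cmya5, Rorb, Egr3, Neurod2, Cux2 and genes of other lists named beside a result were chosen after their values were seen. The 7 genes and 26 lists (300 genes, 229 measured) were chosen with earlier results of these data known.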

Additional observations from a re-analysis of the deposited data

How the results depend on the processing

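The numbers of called pairs and of genes called with each of the 7 genes stayed within 1.5 times of the values above with the array of animal 144, without the 12 of 249 arrays with the largest spread (animal 144 and 11 others), on ranks, with blocks of animal numbers, with the first component, with the probe of largest SD, with array medians subtracted and without the filter, apart from these. In animals with lower numbers 7 of 21 pairs were called. Genes called with Rasgrf2 were 3364 without those arrays, 3370 on ranks and 3917 with the first component, against 6362. With the array of animal 144, 1 of the 7 genes differed between higher and lower numbers, against 2. With that array r changed sign for Camk2a and Neurod6 (0.386), Rtn4r and Neurod6 (0.6), Rtn4r and Nrn1 (0.368), Tbr1 and Nrn1 (0.332), Neurod6 and Nrn1 (0.422) and Neurod6 and Lmo4 (0.021). With the first component it did so for Rtn4r and Nrn1 (0.146), and for Rtn4r and Neurod6 (0.00926) and 2 pairs of Rasgrf2, with Camk2a and with Tbr1, which were called in neither fit. The cause was not tested. Leaving out animal 213, leaving out each animal in turn and the parts of Lmo4 were settings chosen after seeing the data. No paired analysis was possible because the animals form 1 group. With 1 array per animal and no intensities, measurement error and weak signal could not be measured.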

Other observations

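Genes of vessels and microglia also ran with Rtn4r and Tbr1. Of 11 genes of endothelium and pericytes 7 were called positive and 2 negative with Rtn4r, and 9 and 0 with Tbr1, with the pericyte receptor gene Pdgfrb at an r of 0.701 and 0.495. Of 8 microglial genes 6 and 0 were called with Rtn4r and 5 and 1 with Tbr1, with Csf1r, the receptor that microglia need to survive, at 0.615 and 0.533. The background was 35.3% positive and 30.9% negative for Rtn4r and 28.3% and 29.1% for Tbr1. With the first component the median r of the microglial list was 0.102 with Rtn4r, against 0.328 without it, and 0.103 with Tbr1, against 0.229. The medians of the endothelial list were 0.258 with Rtn4r, against 0.306 without it, and 0.237 with Tbr1, against 0.259.

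Lists of the oligodendrocyte lineage and the choroid plexus gave these counts, and differences between the 7 genes were not tested. Of 7 precursor genes 5 were called positive and 0 negative with Camk2a (median r 0.276, against 35.1% and 30.6% of all genes), with the transcription factor gene Olig2 at 0.667. Of 9 genes of mature oligodendrocytes 4 were called positive and 2 negative with Rtn4r (median r -0.058), against 35.3% and 30.9% of all genes. With Tbr1, 1 was positive and 3 negative (median r 0.00305), against 28.3% and 29.1%. Among them the enzyme gene Aspa had an r of -0.715 with Rtn4r and -0.537 with Tbr1, while Cnp had 0.364 with Rtn4r. With Neurod6 2 of 9 genes of mature oligodendrocytes were positive and 5 negative, against 24.2% and 36% of all genes, with the tight junction gene Cldn11 at -0.347. Of 7 choroid plexus genes 1 was positive and 4 negative with Nrn1, against 32.7% and 27.2% of all genes, with the potassium channel gene Kcnj13 at -0.417.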
